A study of Rattus norvegicus with 24 samples.

Results

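The enzymes and binding proteins that write, read and erase DNA methylation and histone marks were examined in the liver of adult F2 female Sprague-Dawley rats that differed in the grandfather's diet, chow or high-fat (HFD). The set was a fixed list of 46 genes, and its members were the probe sets that the platform annotation assigns to 1 of these genes and to no other gene. This gave 46 of the 20917 probe sets on the array, for 43 of the 46 genes, among 16856 genes with a probe set of their own. Hdac1, Eed and Crebbp had 2 probe sets each, and Setdb1, Sirt1 and Suz12 were not analysed here. Of the 46 probe sets, 45 were bright enough to be tested among 15687 tested probe sets, and the probe set of Uhrf1 was not.

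The study put 1 liver sample per female on an Affymetrix whole-transcript array, 24 in all. The females descended from F0 males fed chow (the chow line) or an HFD (the HFD line), and ate chow or an HFD with 42/45% of energy from fat for 12 weeks. The labels name the groups GpatCD-CD (chow line, females on chow, n = 7), GpatCD-HF (chow line, females on the HFD, n = 6), GpatHF-CD (HFD line, females on chow, n = 6) and GpatHF-HF (HFD line, females on the HFD, n = 5). No group differs from another in strain or sex, and no genetic change or drug is labelled. The labels give no litter, parent or grandfather for any female, so p-values treat the arrays as independent animals and would be too small if females of a group were related. Signal is given as log2(deposited value + 16), and a difference on this scale understates the change of a dim probe set.

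DNA methyltransferases attach methyl groups to cytosines in CpG dinucleotides, TET dioxygenases oxidise that mark as a step towards its removal, and methyl-CpG binding proteins recruit repressor complexes to it. On histones, acetyltransferases and deacetylases set lysine acetylation, which opens or closes chromatin, while methyltransferases and demethylases set lysine methylation that marks active or silent genes. In liver several of these proteins, among them the sirtuins and the deacetylase Hdac3, are known to act in lipid and glucose metabolism, and inherited effects of a paternal diet have been discussed in terms of the marks that this machinery maintains. The array measures the messenger RNA of the enzymes, not the marks themselves. In whole liver, fewer cells of a type and less RNA per cell cannot be told apart.

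Because the DNA methylation machinery acts on CpG dinucleotides, these were counted in the promoters of the members. Promoters were read from RefSeq (build GRCr8), from 250 bases before to 50 bases after each start. There were 50 such windows for 41 of the 46 genes, including 3 genes not measured here. The windows held between 2 and 48 CpG dinucleotides, with a median of 21.5 and a median ratio of observed to expected CpG of 0.79. A ratio above 0.6 together with a GC content above 50% was found in 76.0% of the member windows, in 49.9% of the 15086 windows of genes on the array and in 31.0% of all 33469 windows in the table. The promoters of 3 members to which the results below refer are shown. The first, Crebbp, had the most CpG dinucleotides of the member windows (48). The second, Hdac8, had 4. Capitals mark each CpG in both. In the third, Ezh2, with 30 CpG dinucleotides, capitals mark instead a match to 1 of the E2F motif spellings TTTCCCGC, TTTGGCGC, TTTCGCGC and TTTGCCGC, which were searched on both strands and can overlap 1 another. E2F factors drive genes of the cell cycle, and Ezh2 is a known target.
Crebbp, chr10:11842090-11842389, plus strand: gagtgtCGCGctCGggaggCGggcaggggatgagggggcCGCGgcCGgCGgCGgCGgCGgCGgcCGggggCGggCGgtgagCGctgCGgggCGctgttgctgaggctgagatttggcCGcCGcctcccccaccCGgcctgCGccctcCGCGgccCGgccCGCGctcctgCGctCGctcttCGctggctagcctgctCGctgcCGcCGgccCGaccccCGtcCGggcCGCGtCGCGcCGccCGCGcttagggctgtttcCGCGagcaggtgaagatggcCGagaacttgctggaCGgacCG
Hdac8, chrX:71632816-71633115, minus strand: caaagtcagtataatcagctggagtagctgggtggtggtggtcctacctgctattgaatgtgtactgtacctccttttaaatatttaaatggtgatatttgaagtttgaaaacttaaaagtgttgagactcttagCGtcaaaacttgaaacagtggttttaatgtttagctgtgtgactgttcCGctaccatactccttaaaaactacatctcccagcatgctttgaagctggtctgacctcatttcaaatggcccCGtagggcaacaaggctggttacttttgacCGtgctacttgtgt
Ezh2, chr4:77687134-77687433, minus strand: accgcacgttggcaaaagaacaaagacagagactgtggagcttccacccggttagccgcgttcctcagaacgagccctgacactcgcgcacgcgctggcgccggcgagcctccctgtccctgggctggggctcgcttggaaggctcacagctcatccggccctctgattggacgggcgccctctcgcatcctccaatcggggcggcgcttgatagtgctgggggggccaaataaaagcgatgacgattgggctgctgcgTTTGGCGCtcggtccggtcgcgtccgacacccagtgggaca
An E2F motif was present in 6 of the 50 member windows (12.0%), those of Dnmt1, Uhrf1, Sirt5, Ezh2, Suz12 and Kdm1a, against 3.17% of the windows of genes on the array and 2.14% of all windows. A match is a run of letters in this window and does not show that a factor binds there.

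The arrays had median intensities between 97.9 and 128, and any pair of arrays correlated at 0.974 to 0.993. Arrays 21 and 25 (GpatCD-CD), 22 (GpatCD-HF) and 24 (GpatHF-HF) stood apart from the other 20 on the second principal component, which held 13.8% of the variance. Values of members named for a small p that move by about 1.5 times or more without these 4 arrays are given both ways. The hepatocyte markers on the array were bright, with mean log2 signals of 13.49 for albumin (Alb) and 13.42 for transferrin (Tf). The growth protocol in the labels mentions gonadal fat although titles, source and tissue say liver. Of 7 fat markers, Adipoq (6.08), Lep (5.78), Plin1 (6.29) and Retn (6.25) lay near the 5.72 below which probe sets were left out. The others, Cfd (7.06), Lipe (7.76) and Cidec (10.48), were brighter.

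On the deposited scale the members varied between animals about as much as other transcripts, and after quantile normalization somewhat less. The mean log2 signal of the tested members lay between 5.84 (Tet1) and 10.41 (Mbd2), values that depend on each probe set and do not rank the genes. The median SD within groups was 0.18 for the members, from 0.09 for Hdac9 to 0.31 for Dnmt3b, and 0.19 for all tested probe sets. After quantile normalization the medians were 0.14 and 0.17. The heat map of the members by array shows no block of members that separates any of the 4 groups, while single members such as Hdac5 and Tet2 are shifted in the 4 arrays that stand apart.

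**Figure D1:**
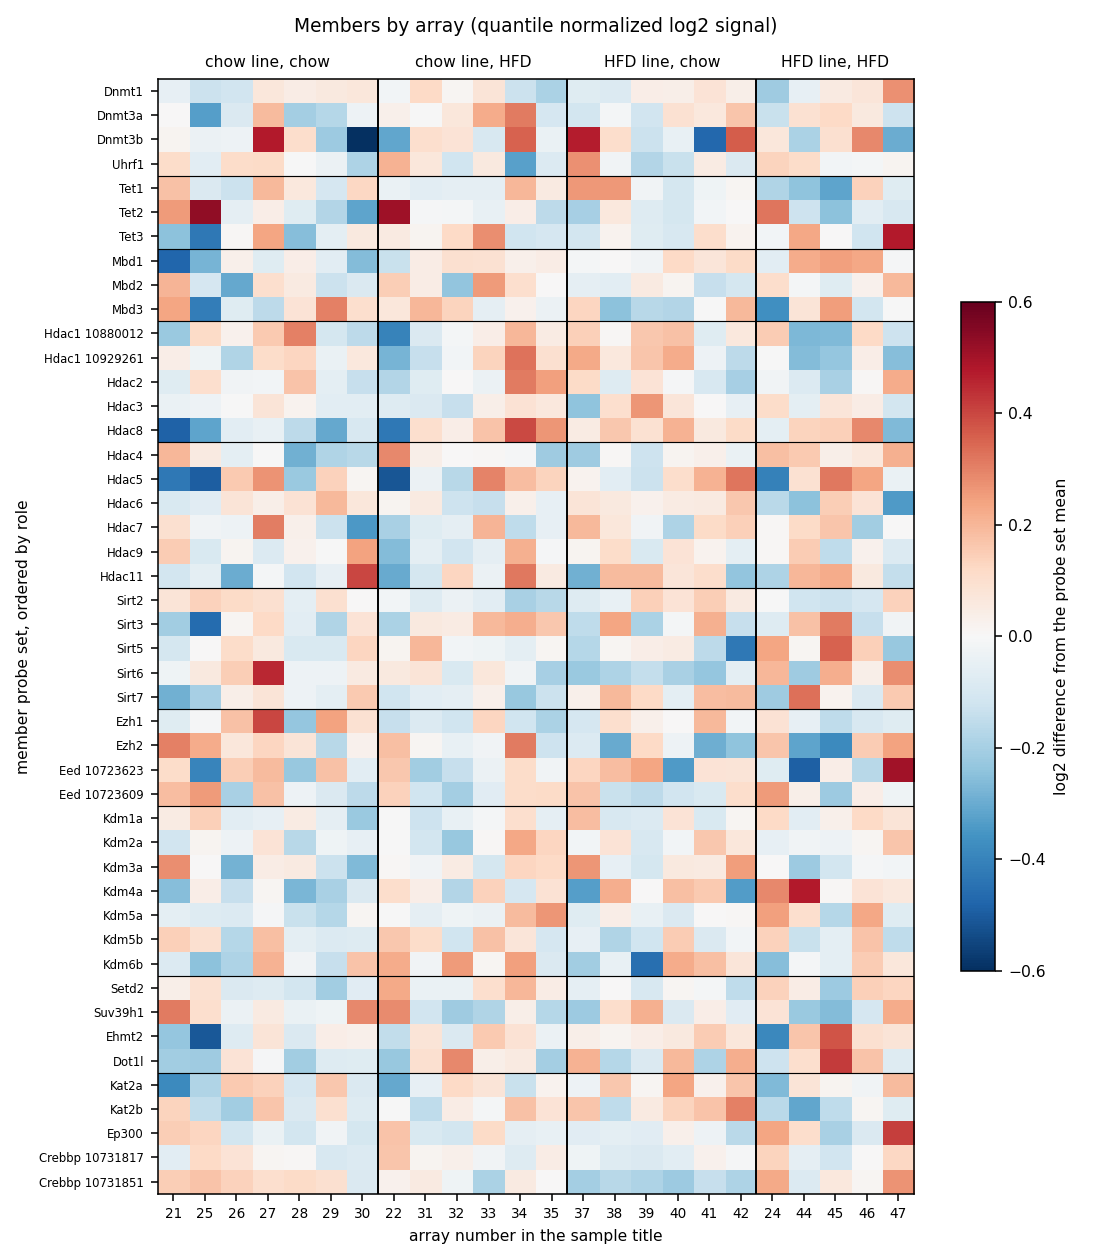
Heat map of the 46 member probe sets (rows, ordered by role) over the 24 arrays (columns, by group), as log2 signal after quantile normalization minus the mean of the probe set over all arrays. Red is above and blue below that mean. Hdac5 is low and Tet2 high in arrays 21, 22, 24 and 25, and no group stands out as a whole.

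The first question was whether the liver of females on chow differed with the grandfather's diet. None of the 45 tested member probe sets passed an adjusted p of 0.05 between HFD-line and chow-line females on chow (limma with Benjamini-Hochberg adjustment over all tested probe sets, lowest adjusted p = 0.482), and 0% of all tested probe sets did. An unadjusted p under 0.05 was reached by 4 members (1 higher, 3 lower in the HFD line), against 9.15% of all tested probe sets. The 45 differences (HFD line minus chow line) ran from -0.27 to 0.30 with a median of 0.03, next to -0.01 over all tested probe sets. The 95% intervals of all 45 lay within a 1.5-fold change in either direction, with outer bounds of -0.50 and 0.54. The groups overlapped for every member on the deposited scale, where 0.325% of all tested probe sets had groups that did not.

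Between the lines on the HFD, again 0 of the 45 members passed (limma, lowest adjusted p = 0.415), as did 0% of all tested probe sets. With an unadjusted p under 0.05 there were 4 members, all lower in the HFD line, against 11.0% of all tested probe sets. Here 42 of the 45 differences were below 0, with a median of -0.11, but the median over all tested probe sets was -0.10. After quantile normalization, which gives every array the same distribution, the medians were 0.01 for the members and -0.00 for all, and 20 of the 45 were below 0. How many members were below 0 in this comparison therefore depends on the scaling. On the deposited scale the 95% intervals of all 45 stayed within 1.5-fold (outer bounds -0.53 and 0.27), and no member had groups without overlap, which 1.18% of all tested probe sets had.

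**Figure D2:**
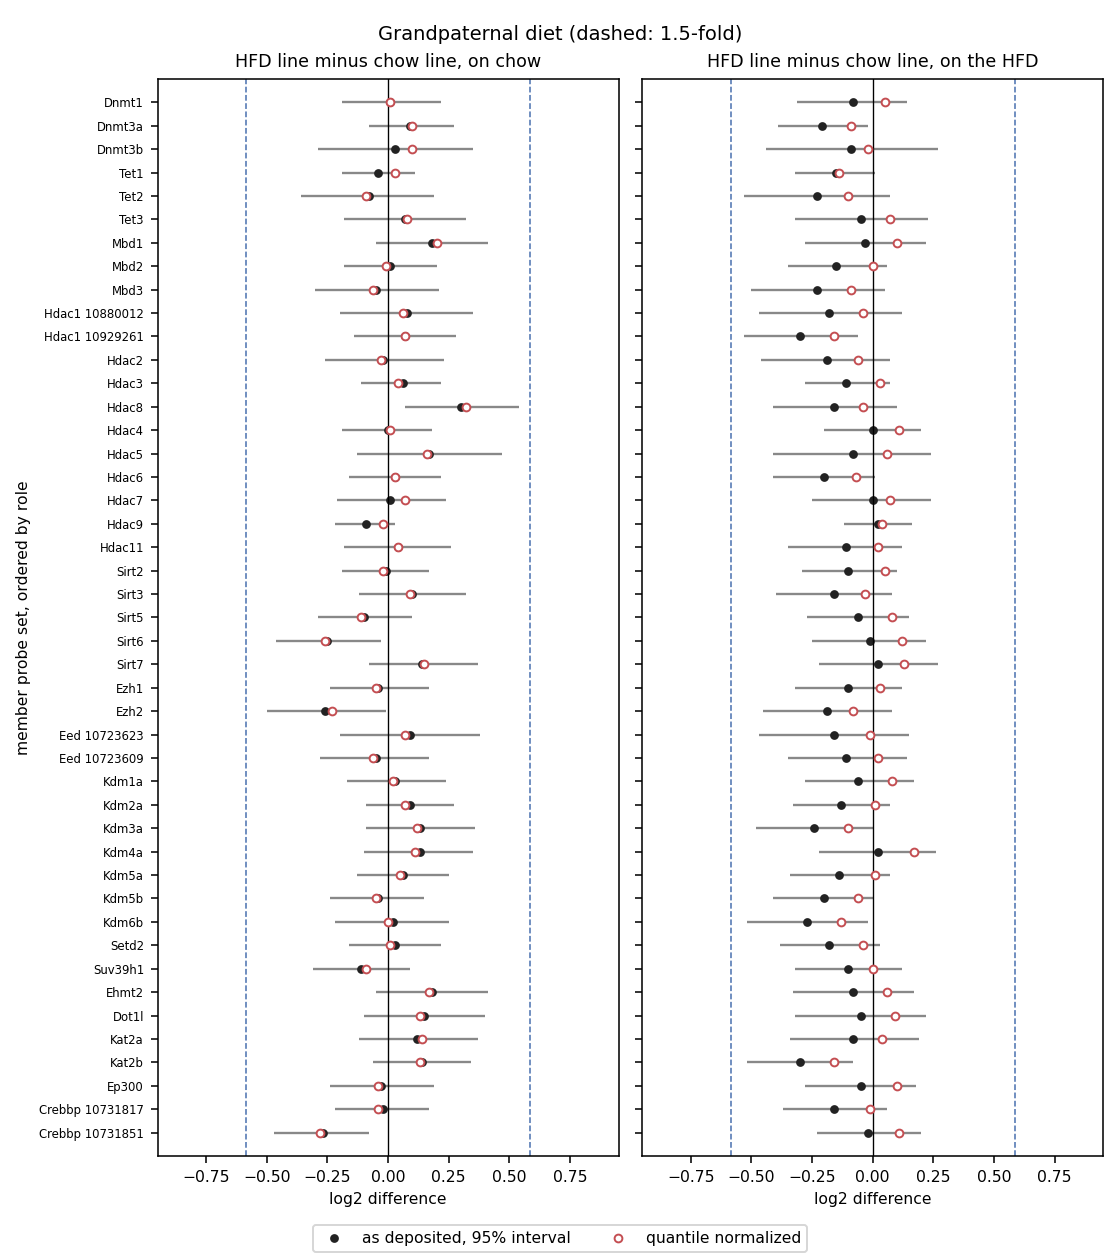
Log2 difference (HFD line minus chow line, horizontal axis) of each tested member probe set in females on chow (left) and on the HFD (right). Black points and bars are the fit on deposited values with its 95% interval, open red points the value after quantile normalization, and dashed lines mark 1.5-fold. All bars lie between the dashed lines. In the right panel 42 of 45 black points are below 0 but 20 of 45 red points are.

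Among the DNA methylation genes, the maintenance methyltransferase Dnmt1 did not differ between groups beyond the spread of the arrays. Its log2 signals had a lowest, median and highest value of 7.95, 8.19 and 8.46 in GpatCD-CD, 7.93, 8.25 and 8.36 in GpatCD-HF, and 8.12, 8.25 and 8.26 in GpatHF-CD, and the 5 GpatHF-HF arrays read 7.84, 8.06, 8.01, 8.19 and 8.47. The 4 ranges lay on top of each other. The difference by grandpaternal diet was 0.01 ± 0.10 (SE) on chow (95% interval -0.19 to 0.22) and -0.08 ± 0.11 on the HFD (-0.31 to 0.14).

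The de novo methyltransferase Dnmt3a was at 7.50, 7.56 and 7.99 (lowest, median, highest) in GpatCD-CD, at 7.65, 7.85 and 7.98 in GpatCD-HF, and at 7.64, 7.74 and 7.90 in GpatHF-CD. The 5 GpatHF-HF arrays read 7.49, 7.72, 7.64, 7.71 and 7.61. The chow-line females on the HFD included the higher values, and the ranges of all groups overlapped. Dnmt3a was 0.21 ± 0.09 lower on the log2 scale in HFD-line than chow-line females on the HFD (limma, difference -0.21, adjusted p = 0.441), which became -0.09 ± 0.09 after quantile normalization. On chow the difference was 0.09 ± 0.08 (adjusted p = 0.759). Dnmt3b, the other de novo enzyme, was the most variable member (5.83 to 7.08 within GpatCD-CD), and its differences were 0.03 ± 0.16 on chow and -0.09 ± 0.17 on the HFD.

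Uhrf1, which brings Dnmt1 to newly replicated DNA, had a mean log2 signal of 5.71 and fell below the brightness limit. Its values were 5.52, 5.76 and 5.96 (lowest, median, highest) in GpatCD-CD, 5.28, 5.71 and 6.03 in GpatCD-HF and 5.52, 5.60 and 5.95 in GpatHF-CD. The 5 GpatHF-HF arrays read 5.92, 5.75, 5.71, 5.64 and 5.72. These ranges overlapped throughout and were not tested.

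The 3 TET dioxygenases, which start active demethylation, did not pass in either grandpaternal comparison. Tet1 was at -0.04 ± 0.07 on chow and -0.15 ± 0.08 on the HFD, Tet2 at -0.08 ± 0.13 and -0.23 ± 0.15, and Tet3 at 0.07 ± 0.12 and -0.05 ± 0.13. The mean log2 signal of Tet1 (5.84) lay near the brightness limit of 5.72. Tet2 varied with the 4 arrays that stand apart: with group means removed and quantile normalization, it lay at 0.22 to 0.50 in those 4 and at -0.35 to 0.12 in the other 20. Of the Mbd genes, Mbd1 was at 0.18 ± 0.11 on chow (limma, adjusted p = 0.643), Mbd2 at 0.01 ± 0.09, and Mbd3, a subunit of the NuRD repressor complex, at -0.05 ± 0.12. Without the 4 arrays that stand apart, Mbd1 on chow was at 0.07 ± 0.10.

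Hdac8, a class I deacetylase whose substrates include cohesin, had the largest positive difference among the members on chow. In GpatCD-CD its lowest, median and highest log2 signals were 6.91, 7.32 and 7.60, and in GpatHF-CD 7.57, 7.65 and 7.69. In GpatCD-HF they were 7.14, 7.71 and 7.81, and the GpatHF-HF arrays read 7.37, 7.56, 7.48, 7.74 and 7.27. Most chow-line females on chow were lower than all HFD-line females on chow, with overlap between 7.57 and 7.60, and after quantile normalization these 2 groups no longer overlapped (7.03 to 7.48 against 7.57 to 7.73). The difference was 0.30 ± 0.11, a 1.23-fold higher signal in the HFD line that did not pass (limma, adjusted p = 0.491). Without arrays 21, 22, 24 and 25 it was 0.21 ± 0.09, and Hdac8 was lower by 0.33 in those 4 arrays than in the others. On the HFD the difference was -0.16 ± 0.12. The Hdac8 promoter window printed above was among the poorest in CpG of the set.

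Hdac1, a catalytic subunit of the NuRD, Sin3 and CoREST complexes, was read by probe sets 10880012 and 10929261. Probe set 10929261 had values of 8.02, 8.16 and 8.53 (lowest, median, highest) in GpatCD-CD, 7.91, 8.31 and 8.38 in GpatCD-HF, and 8.03, 8.30 and 8.57 in GpatHF-CD. The GpatHF-HF arrays read 8.03, 7.83, 7.74, 8.15 and 7.91, with lower values overall and overlap with the lowest arrays of each other group. On the HFD it was at -0.30 ± 0.11 between the lines (limma, adjusted p = 0.434) and at -0.16 ± 0.10 after quantile normalization. The brighter probe set 10880012 was at -0.18 ± 0.14. On chow the 2 probe sets were at 0.07 ± 0.10 and 0.08 ± 0.13.

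The other class I members, Hdac2 and the NCoR and SMRT partner Hdac3, were at -0.02 ± 0.12 and 0.06 ± 0.08 on chow and at -0.19 ± 0.13 and -0.11 ± 0.09 on the HFD. Across the 6 probe sets of the class II and IV deacetylases (Hdac4, Hdac5, Hdac6, Hdac7, Hdac9 and Hdac11), the differences ran from -0.09 to 0.17 on chow and from -0.20 to 0.02 on the HFD, and none passed. Hdac5, which shuttles between cytoplasm and nucleus, had 1 of the wider intervals on chow (0.17 ± 0.15). In the 4 arrays that stand apart it lay at -0.50 to -0.35 relative to its group means after quantile normalization, and at -0.21 to 0.35 in the other 20.

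The sirtuins are deacylases that need NAD+ and respond to nutrient supply, and Sirt6 represses glycolytic genes from chromatin. Sirt6 was at 8.41, 8.79 and 9.13 (lowest, median, highest) in GpatCD-CD and at 8.37, 8.51 and 8.61 in GpatHF-CD. In GpatCD-HF it was at 8.47, 8.71 and 8.77, and the GpatHF-HF arrays read 8.67, 8.34, 8.60, 8.62 and 8.91. On chow, HFD-line females lay at the low end of the chow-line range, with overlap as deposited and none after quantile normalization (8.60 to 9.08 against 8.40 to 8.57). The difference was -0.25 ± 0.10, a 1.19-fold lower signal (limma, adjusted p = 0.514). On the HFD it was -0.01 ± 0.11. Of the mitochondrial sirtuins, Sirt3 was at 0.10 ± 0.11 on chow and Sirt5 at -0.10 ± 0.10, while the mainly cytoplasmic Sirt2 was at -0.01 ± 0.09 and the nucleolar Sirt7 at 0.14 ± 0.11.

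Polycomb repressive complex 2 places the silencing mark on lysine 27 of histone H3 through Ezh1 or Ezh2, with Eed as a core subunit. Ezh2 had the smallest p of all members when the grandpaternal difference was averaged over both own diets. Its log2 signals were 7.35, 7.73 and 7.84 (lowest, median, highest) in GpatCD-CD, 7.42, 7.62 and 7.73 in GpatCD-HF and 7.21, 7.33 and 7.68 in GpatHF-CD. The GpatHF-HF arrays were split, with 7.58, 7.61 and 7.76 beside 7.13 and 7.00. Low values occurred in both HFD-line groups, and each range overlapped that of its chow-line counterpart. The averaged difference was -0.22 ± 0.09 (95% interval -0.40 to -0.04, 1.17-fold lower), which did not pass (limma, adjusted p = 0.374), and after quantile normalization it was -0.16 ± 0.08. On chow alone it was -0.26 ± 0.12 and on the HFD alone -0.19 ± 0.13. Leaving out each array in turn kept the averaged value between -0.26 and -0.17. Ezh1 was at -0.04 ± 0.10 and -0.10 ± 0.11, and the Eed probe sets 10723623 and 10723609 were at 0.09 ± 0.14 and -0.05 ± 0.11 on chow.

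None of the 7 histone demethylases and 4 other histone methyltransferases passed in either grandpaternal comparison. Of the demethylases, 6 were above 0 on chow (range -0.04 to 0.13) and 6 were below 0 on the HFD (range -0.27 to 0.02), where 3 were below 0 after quantile normalization. Kdm6b, which removes the lysine 27 mark, had values of 9.17, 9.31 and 9.66 (lowest, median, highest) in GpatCD-HF, and the GpatHF-HF arrays read 8.81, 9.13, 8.90, 9.33 and 9.30. The groups overlapped over most of their range. The difference was -0.27 ± 0.12 (limma, adjusted p = 0.441) as deposited, -0.18 ± 0.13 without the 4 arrays that stand apart and -0.13 ± 0.11 after quantile normalization. Kdm5b, a demethylase of lysine 4, was at -0.20 ± 0.10 and Kdm3a, which acts on lysine 9 in the control of metabolic genes, at -0.24 ± 0.12 in the same comparison. Setd2, which trimethylates lysine 36, was at 0.03 ± 0.09 on chow and -0.18 ± 0.10 on the HFD. The lysine 9 enzymes Suv39h1 and Ehmt2 were at -0.11 ± 0.10 and 0.18 ± 0.11 on chow, and the lysine 79 enzyme Dot1l was at 0.15 ± 0.12.

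Among the acetyltransferases, the clearest feature was a disagreement between the 2 probe sets of Crebbp, the coactivator CBP. Probe set 10731851 had values of 8.27, 8.71 and 8.91 (lowest, median, highest) in GpatCD-CD, 8.38, 8.57 and 8.67 in GpatCD-HF and 8.25, 8.39 and 8.51 in GpatHF-CD. The GpatHF-HF arrays read 8.61, 8.38, 8.36, 8.50 and 8.82. HFD-line females on chow formed the lowest and tightest group. Against chow-line females on chow the difference was -0.27 ± 0.10, a 1.21-fold lower signal, with the smallest p of any member there (limma, adjusted p = 0.482). After quantile normalization the difference was -0.28 ± 0.06 (adjusted p = 0.143) and the groups no longer overlapped (8.45 to 8.71 against 8.32 to 8.40), as for 0.937% of all tested probe sets. The 3 members without overlap on that scale were Crebbp probe set 10731851, Hdac8 and Sirt6.

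The brighter Crebbp probe set, 10731817, did not show this difference. It had values of 9.80, 10.08 and 10.31 (lowest, median, highest) in GpatCD-CD and 9.89, 10.03 and 10.25 in GpatHF-CD, which overlapped almost fully. The difference was -0.02 ± 0.10 (95% interval -0.22 to 0.17) as deposited and -0.04 after quantile normalization. The annotation used here does not say which exons each probe set reads, and the difference between the probe sets was not tested. Ep300, the paralogue of Crebbp, was at -0.03 ± 0.10 on chow and -0.05 ± 0.11 on the HFD.

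Kat2b (PCAF), an acetyltransferase of histone H3, had the smallest p of the members between the lines on the HFD. Its values were 8.90, 9.13 and 9.37 (lowest, median, highest) in GpatCD-CD, 9.07, 9.21 and 9.40 in GpatCD-HF and 9.06, 9.27 and 9.54 in GpatHF-CD. The GpatHF-HF arrays read 8.84, 8.77, 8.75, 9.13 and 9.11, with 3 arrays below every array of the other groups and 2 within their ranges. The difference between the lines on the HFD was -0.30 ± 0.11, a 1.23-fold lower signal that did not pass (limma, adjusted p = 0.415), and it was -0.16 ± 0.08 after quantile normalization. On chow the sign was the other way, at 0.14 ± 0.10. Its paralogue Kat2a was at 0.12 ± 0.12 on chow and -0.08 ± 0.13 on the HFD.

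**Figure D3:**
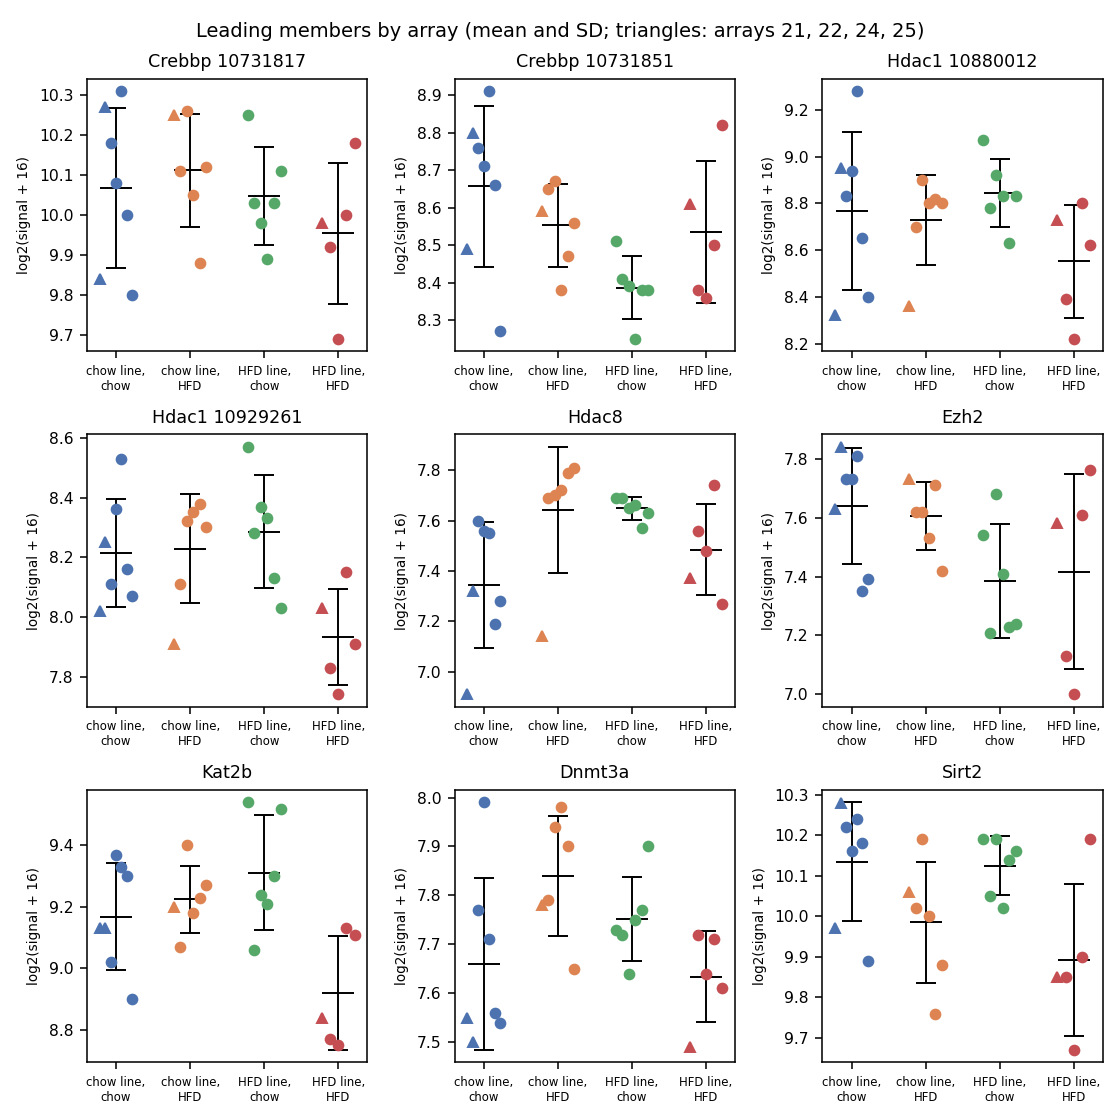
Log2(signal + 16) of 9 member probe sets on each array by group, with the mean (long bar) and SD, on the deposited scale. Triangles are arrays 21, 22, 24 and 25. Crebbp probe set 10731851 is lowest in HFD-line females on chow while probe set 10731817 is not, and 3 of the 5 HFD-line females on the HFD lie below every other array for Kat2b. The vertical axes differ between panels and do not start at 0.

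Averaged over both own diets, 0 of 45 members passed for grandpaternal diet (limma, lowest adjusted p = 0.374, 0% of all tested probe sets passed). Ezh2 was the 1 member with an unadjusted p under 0.05, against 11.0% of all tested probe sets. The 45 averaged differences ran from -0.22 to 0.08 with a median of -0.05, the same as over all tested probe sets, and after quantile normalization the median was 0.01. After Ezh2, the next members by p were Crebbp probe set 10731851 (-0.15 ± 0.07), Kdm5b (-0.12 ± 0.07), Tet1 (-0.10 ± 0.05) and Sirt6 (-0.13 ± 0.08), and none of them passed.

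Whether the effect of the females' own diet differed between the lines was tested as the interaction (the HFD minus chow difference in the HFD line, minus that in the chow line). No member passed (limma, lowest adjusted p = 0.308, 0% of all tested probe sets passed), and 5 had an unadjusted p under 0.05, against 9.71% of all. Kat2b was at -0.45 ± 0.14 (adjusted p = 0.308), Hdac8 at -0.46 ± 0.17 (adjusted p = 0.393), Hdac1 probe set 10929261 at -0.37 ± 0.15, Kdm3a at -0.37 ± 0.16 and Dnmt3a at -0.30 ± 0.12. After quantile normalization these were -0.29 ± 0.12, -0.37 ± 0.16, -0.23 ± 0.13, -0.22 ± 0.12 and -0.19 ± 0.12. All 5 kept their sign and shrank. In the same fit Crebbp probe set 10731851 was at 0.25 ± 0.14 as deposited and 0.39 ± 0.09 after quantile normalization (adjusted p = 0.51), and probe set 10731817 at -0.13 and 0.03. The intervals are wide here, with 34 of the 45 within a 1.5-fold difference and all 45 within 2-fold.

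The females' own diet was compared within each line. In the chow line 0 of 45 members passed (limma, lowest adjusted p = 0.417), against 0.319% of all tested probe sets, and 2 had an unadjusted p under 0.05, against 8.80% of all. The groups overlapped for every member, and did not for 0.338% of all tested probe sets. The 2 members were Hdac8 at 0.30 ± 0.11 and Dnmt3a at 0.18 ± 0.08, both higher on the HFD. The Hdac8 value was 0.31 ± 0.09 without the 4 arrays that stand apart. The next by p were Sirt3 (0.19 ± 0.11, and 0.12 ± 0.10 without the 4 arrays), Sirt2 (-0.15 ± 0.09) and Hdac9 (-0.10 ± 0.06). The differences by grandpaternal diet on chow and by own diet in the chow line share the GpatCD-CD arrays, in which Hdac8 was low.

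In the HFD line 0 of 45 members passed (limma, lowest adjusted p = 0.0755), against 0.752% of all tested probe sets. No member had groups without overlap on the deposited scale, which 3.04% of all tested probe sets had. With an unadjusted p under 0.05 there were 6 members, all lower on the HFD, against 15.8% of all tested probe sets. Kat2b was lower in GpatHF-HF than in GpatHF-CD by 0.39 ± 0.11 (difference -0.39, 1.31-fold, adjusted p = 0.0755), Hdac1 probe set 10929261 was at -0.35 ± 0.11 (adjusted p = 0.134) and Hdac6, a mainly cytoplasmic deacetylase of tubulin, at -0.31 ± 0.10 (adjusted p = 0.142). Sirt2 was at -0.23 ± 0.09, Kdm3a at -0.29 ± 0.12 and Ezh1 at -0.23 ± 0.11. The median was -0.10 over the members and -0.09 over all tested probe sets, and after quantile normalization the members' median was 0.01. On that scale Kat2b was at -0.25 ± 0.08 (adjusted p = 0.201).

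Crebbp probe set 10731851 moved the other way in the HFD line, at 0.15 ± 0.10 as deposited and 0.28 after quantile normalization (adjusted p = 0.0519), where GpatHF-CD (8.32 to 8.40) and GpatHF-HF (8.46 to 8.81) did not overlap. Hdac4 was the other member without overlap on that scale, at 0.18 (7.39 to 7.64 against 7.64 to 7.82), while 2.11% of all tested probe sets had none. For Hdac4 the groups all but touched, with GpatHF-CD array 41 at 7.6406 and GpatHF-HF array 45 at 7.6418. A fit added after the data were seen combined quantile normalization with the 4 arrays that stand apart as a block. In it Crebbp probe set 10731851 passed (0.26 ± 0.06, limma, adjusted p = 0.0477), as did 0.835% of all tested probe sets. With quantile normalization and the 4 arrays left out instead, this probe set did not pass. Probe set 10731817 was at -0.09 ± 0.10 as deposited and 0.06 after quantile normalization.

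**Figure D4:**
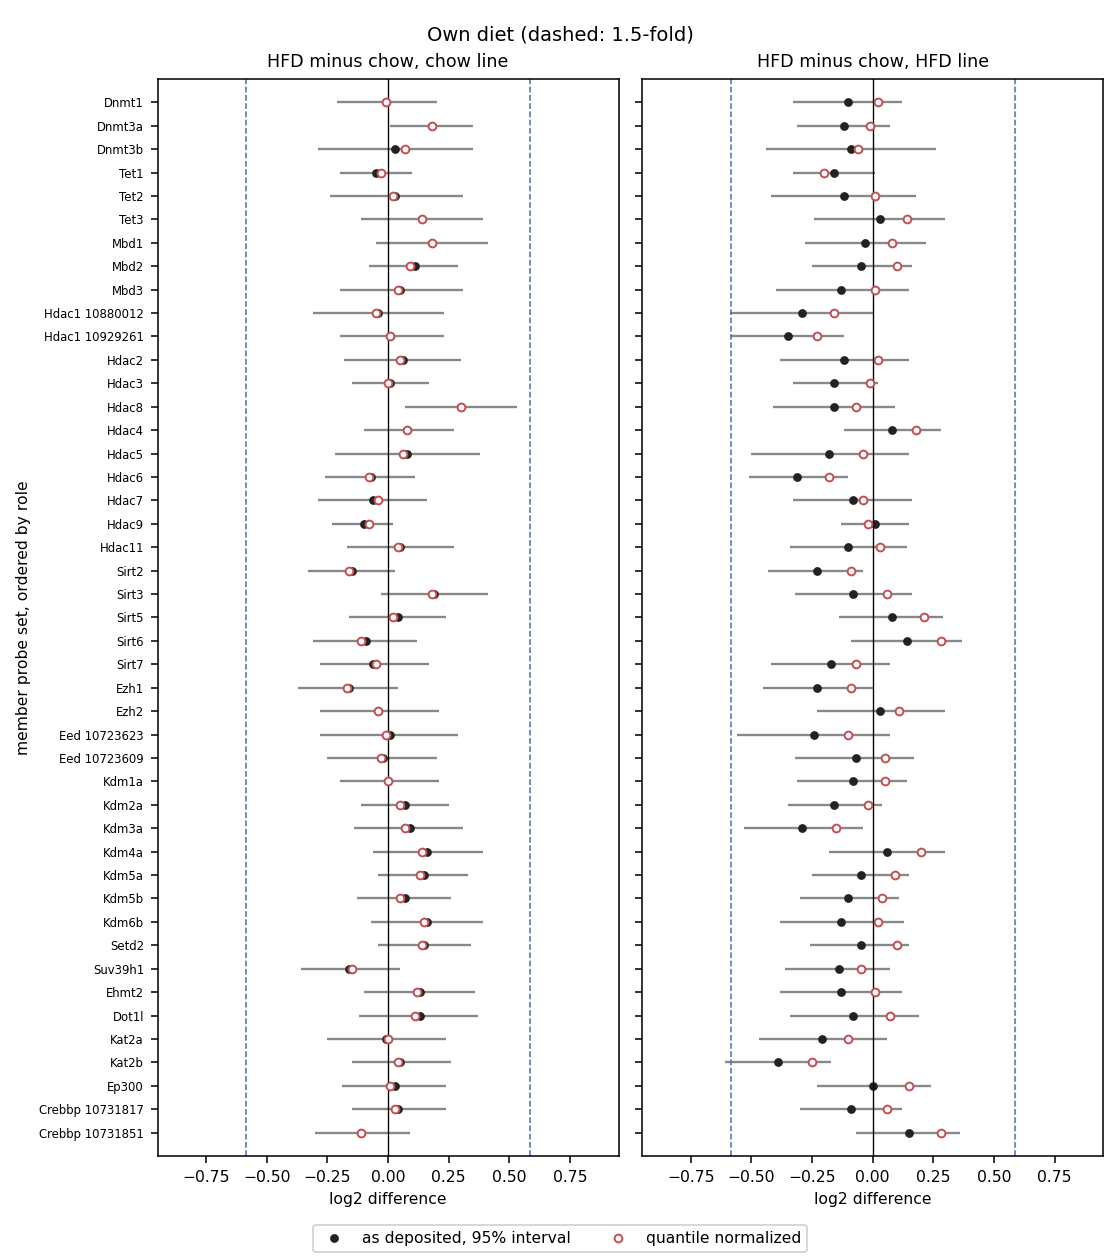
Log2 difference (HFD minus chow, horizontal axis) of each tested member probe set in the chow line (left) and the HFD line (right), drawn as for the grandpaternal diet. The bars of Kat2b and of both Hdac1 probe sets reach past 1.5-fold on the lower side in the HFD line. In that panel most red points (quantile normalized) lie to the right of the black ones, so that members below 0 as deposited fall on either side of 0.

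Averaged over both lines, 0 of 45 members passed for own diet (limma, lowest adjusted p = 0.132), against 1.99% of all tested probe sets, and 6 had an unadjusted p under 0.05, against 13.3%. Sirt2, a deacetylase of tubulin and of metabolic enzymes, was at 9.89, 10.18 and 10.28 (lowest, median, highest) in GpatCD-CD, 9.76, 10.01 and 10.19 in GpatCD-HF and 10.02, 10.15 and 10.19 in GpatHF-CD, and at 9.85, 9.85, 9.67, 9.90 and 10.19 in the GpatHF-HF arrays. Both HFD-fed groups had lower medians than the chow-fed groups of their line, and both reached into the range of the chow-fed groups. The averaged difference was -0.19 ± 0.06 (adjusted p = 0.132), and without GpatHF-HF array 47, the highest of its group, it passed (-0.23 ± 0.06, limma, adjusted p = 0.0448), as did 2.14% of all tested probe sets. Hdac6 (-0.19 ± 0.07), Ezh1 (-0.19 ± 0.07), Kat2b (-0.17 ± 0.07) and Hdac1 probe set 10929261 (-0.17 ± 0.08) were next and did not pass.

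Beside these averaged values, markers of Kupffer cells moved with own diet: 3 of the 11 measured (Marco, Cd5l and Vsig4) fell, with log2 differences of -1.16, -0.70 and -0.55, and the median of the 11 was -0.37. The summed Kupffer signal (log2) ran from 12.61 to 13.34 in GpatCD-CD and 11.86 to 12.69 in GpatCD-HF, and from 12.31 to 13.15 in GpatHF-CD and 12.17 to 12.88 in GpatHF-HF, with 0 of the 11 below the brightness limit. Of 5 bile duct markers, 1 (Epcam) passed for averaged own diet (-0.55 ± 0.10), as did 1.99% of all tested probe sets. In the HFD line alone Epcam was at -0.76 ± 0.15 and also passed, as did 0.752% of all. The other bile duct markers did not follow. The median of the 5 was 0.03 on average, with 2 below 0, and -0.01 in the HFD line. The part of these cells in the members' values was not tested. None of the 11 Kupffer markers passed for the averaged grandpaternal diet, where their median was -0.09, next to -0.05 over all tested probe sets. The 5 bile duct markers were all below 0 there (median -0.07, and -0.01 after quantile normalization). Of all tested probe sets 25.8% were above 0 in that comparison as deposited. Sox9 was at -0.25 ± 0.07 and Krt19 at -0.32 ± 0.11. Medians of the other cell type lists were -0.15 (proliferating), -0.14 (stellate), -0.07 (endothelial), -0.05 (lymphocytes) and -0.01 (hepatocytes). No marker of these lists passed.

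The wider chromatin machinery was read from lists of other genes. Of 111 further genes in 8 lists (other DNA methylation genes, other deacetylases, their complex partners, other Polycomb genes, other histone demethylases, other histone methyltransferases, arginine methyltransferases and other acetyltransferases), 84 were tested. None rose or fell by grandpaternal diet on chow, on the HFD or on average (limma), and 2, 8 and 4 of the 84 had an unadjusted p under 0.05, next to 9.15%, 11.0% and 11.0% of all tested probe sets. The leading genes of 3 lists by p on average were Suv39h2, a lysine 9 methyltransferase (-0.25 ± 0.08, adjusted p = 0.32), Mta3 of the NuRD complex (-0.32 ± 0.12, adjusted p = 0.366) and Zbtb33 (Kaiso), which binds methylated DNA (-0.17 ± 0.08, adjusted p = 0.413). The mean log2 signal of Suv39h2 (5.73) lay near the brightness limit of 5.72. Kmt5a, which places a methyl group on lysine 20 of histone H4, had the second smallest p of the 84 (-0.61 ± 0.21, adjusted p = 0.334) and was named after its values were seen. The leading genes of the other 5 lists were Mtf2 (-0.15 ± 0.10), Phf8 (-0.08 ± 0.06), Prmt2 (-0.07 ± 0.06), Ncoa1 (-0.07 ± 0.07) and Sirt4 (-0.02 ± 0.07).

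Enzymes that supply methyl and acetyl groups were a list of 16 genes, of which 15 were tested. None passed for the averaged grandpaternal diet, where Mat2a, which makes S-adenosylmethionine in most tissues, was at -0.24 ± 0.10 (limma, adjusted p = 0.411). In the own-diet comparisons 2 genes of this list passed. Of all tested probe sets 0.319% passed in the chow line, 0.752% in the HFD line and 1.99% on average. Acss2, which makes acetyl-CoA from acetate, fell on the HFD in the chow line (-1.07 ± 0.16, limma, adjusted p = 0.000929) and in the HFD line (-0.90 ± 0.18, adjusted p = 0.0119). Nnmt, which consumes S-adenosylmethionine to methylate nicotinamide, fell on average over the lines (-0.54 ± 0.13, adjusted p = 0.0277). Among the acetyltransferase list, Ncoa3 fell on average (-0.30 ± 0.08, limma, adjusted p = 0.0495). It was the 1 gene of the 84 in the 8 chromatin lists to pass there.

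Uhrf1, Dnmt1, Ezh2 and Suv39h1 are known to follow cell division, and their levels were set against the mean of 13 proliferation markers across the 24 arrays, with group means removed and quantile normalization. Uhrf1 (5.71) lay below the brightness limit of 5.72. Several markers lay near that limit, among them Bub1 (5.73), Mcm6 (5.88) and Ccnb2 (5.92), while Mcm2 (7.25), Tyms (7.51) and Pcna (8.16) were brighter. A weak correlation at such dim signals does not show that a relation is absent. Removing group means leaves out differences between the lines, so the correlations do not address the grandpaternal difference of Ezh2. In the averaged grandpaternal comparison all 13 markers were below 0 (median -0.15, and -0.09 after quantile normalization), and none passed. Of all tested probe sets 25.8% were above 0 there as deposited, with a median of -0.05, and of 0.00 after quantile normalization. A relation of Ezh2 to these marker differences was not tested. Pearson's r was 0.01 for Uhrf1 (Spearman's rho -0.04), 0.25 for Dnmt1 (rho 0.23), 0.19 for Ezh2 (rho 0.29) and -0.12 for Suv39h1 (rho -0.07). In permutation tests none of the 4 relations passed (two-sided p = 0.984, 0.331, 0.402 and 0.628 for r and 0.866, 0.349, 0.229 and 0.777 for rho; lowest adjusted p = 0.803 and 0.697). On deposited values r was 0.29, 0.36, 0.40 and 0.14, and Ezh2 had an unadjusted permutation p of 0.0374 (adjusted p = 0.15; rho 0.47, p = 0.0203, adjusted p = 0.0813). Without the 2 arrays farthest from the median of the marker mean, r was -0.22, -0.02, 0.34 and -0.02. Within the 20 arrays that do not stand apart it was 0.10, 0.28, 0.30 and -0.00, and the 4 arrays that do are too few for a value of their own.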

How the data were processed

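Liver RNA of 24 females was hybridised to 1 Affymetrix array each. The authors deposited linear intensities, 1 value for each probe set of each array. Per the submitters' processing notes these came from the PLIER algorithm in Affymetrix Expression Console, with versions and normalization options not given in the sources used here. Each deposited intensity was converted to log2(value + 16) without normalizing the arrays further, and the dimmest 25% of probe sets by mean (5230) were not tested. The other 15687 entered a limma fit (version 3.58.1, R 4.3.3, eBayes with trend) of 4 group means to all 24 arrays. P-values are two-sided with Benjamini-Hochberg adjustment over all 15687, with a threshold of 0.05. The ± after a log2 difference is its standard error. The number of arrays limits the precision.

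Genes came from the platform annotation, in which 18197 probe sets had 1 gene, 960 several and 1760 none here. List genes were represented by their brightest probe set. Named for each comparison were the 5 members with the smallest p where fewer than 5 passed, and from each list the genes that passed or that with the smallest p for the averaged grandpaternal diet. Others are added for their role, or for groups without overlap, after their values were seen. Members, lists and tests were chosen with earlier results of these data known. Correlations used 100000 permutations within groups. The fit was tested on simulated data. The alternatives were quantile normalization, centring arrays on their median, other filters, offsets and variance priors, a fit of only the 2 groups in question, removal of arrays 21, 22, 24 and 25 or a block for them, and each array left out in turn. Quantile normalization combined with the last 2 treatments of these 4 arrays was added after seeing the data.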

Additional observations from a re-analysis of the deposited data

Results flagged for a closer look

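Among the 68 groups of arrays of the 17 member probe sets named by p, 4 held an array far from the others by Dixon's criterion (gap over range above 0.625 in groups of 6). Chance alone gives about 1 in 20 groups, or 3.4 of 68. In GpatCD-HF, array 22 was low for Hdac8, a class I deacetylase, at 7.14 with the nearest array at 7.69 (gap 0.82 of the range), and low for the mitochondrial Sirt3 at 8.15 with the nearest at 8.42 (0.70). In GpatHF-CD, array 39 was low for the demethylase Kdm6b at 8.81 with the nearest at 9.22 (0.73), and array 42 was low for Hdac9 at 5.83 with the nearest at 5.94 (0.68). Array 22 is 1 of the 4 arrays that stand apart. Hdac9 was dim, with a mean log2 signal of 5.98 near the brightness limit of 5.72.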

How the results depend on the processing

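Of the 1278 values of named members under alternatives, 1277 kept their direction and side of the threshold, none reversed, and 1 came to pass (Sirt2, above). These members were named for a small p and none passed in the main fit, so the count says little about their sizes. With all single arrays kept, Kdm6b between the lines on the HFD ran from -0.28 to -0.04 and Dnmt3a from -0.22 to -0.06. Crebbp probe set 10731851 between the lines on chow ran from -0.28 to -0.23. The number of members passing was 0 in every comparison and setting except own diet in the HFD line, with 1 (Crebbp probe set 10731851) under quantile normalization with the 4 arrays as a block, and averaged own diet, with 0 to 1 when single arrays were left out. Over all probe sets, grandpaternal diet on chow gave 0 passing as deposited, 1 after quantile normalization, 2 with the 4 arrays also left out and 3 with them as a block. On average it gave 0, but 4 with the lower 50% left out, 4 with robust eBayes, 2 without the 4 arrays and 2 with them as a block. Own diet in the chow line gave 50 as deposited, 89 after quantile normalization (24 higher), 79 with arrays centred (25 higher), and 95 and 163 with quantile normalization and the 4 arrays left out or as a block, against 12 higher as deposited. In the HFD line it gave 118, but 77 without the 4 arrays and 66 with quantile normalization as well. Averaged own diet gave 312, and 646 with quantile normalization and the block. Leaving out single arrays gave 0 to 1 for grandpaternal diet on chow, 0 to 4 on the HFD, 0 to 7 on average, 34 to 56 for own diet in the chow line, 56 to 148 in the HFD line, 214 to 470 on average, and 0 to 57 for the interaction (57 without GpatCD-CD array 28 and 48 without GpatCD-HF array 22, both with 0 members). The correlations with proliferation markers reversed for Uhrf1 (-0.22) and Dnmt1 (-0.02) without the 2 farthest arrays, and for Suv39h1 (0.14) on deposited values, where Ezh2 went from 0.19 to 0.40 (adjusted permutation p = 0.15). The causes were not tested. The fit with only the groups compared was not run for the averages and the interaction, which use all 4 groups. No paired analysis was possible because no replicate number occurs in more than 1 group.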
